A study of Mus musculus with 6 samples.

Results

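Stress-gated macrophages (MΦs) were the cells of the peritoneal MΦ pool that held the RNAs of Trib3, Ddit3, Herpud1 and Sesn2, genes of the stress response to unfolded protein and amino acid shortage. They were selected on the counts themselves. A kept cell had at least 500 genes and at most 10% of its unique molecular identifiers (UMIs, counted RNA molecules) from mitochondrial genes. It was taken as a MΦ if Csf1r, Adgre1 and Fcer1g together gave at least 2 UMIs, Cd79a and Cd79b at most 2, and Cd3d, Cd3e and Nkg7 at most 1. A MΦ was stress-gated if the gate genes together gave at least 3 UMIs, Tnf at most 1, and Fcrls, Irf4, Ocstamp and Dcstamp, genes of small peritoneal MΦs (SPMs), at most 1. This left 387 stress-gated cells among 2773 MΦs and 7665 kept cells, and 2386 other MΦs to compare them with. Another 78 MΦs reached the gate sum but not the Tnf or SPM condition, and stood with the other MΦs.

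The cells came from the peritoneal lavage of C57BL/6 mice (C57BL/6J in the study's methods) that were MerTK +/+ or MerTK -/-, 8 to 12 weeks old, and each library pooled the cells of several mice. MerTK is a receptor that MΦs use to take up dying cells, and the MerTK -/- animals were the backcrossed MerKD line. After 1 h of adherence the cells had a media change as control, or were co-cultured for 2 h or 6 h with UV-treated apoptotic cells (ACs) made from GFP-expressing human Jurkat T cells. There was 1 library per genotype and treatment, and the barcodes carry a library number from 1 to 6 that the labels do not tie to a sample. Genotypes and treatments could therefore not be compared, and every value below is given over the pool or by library number. The libraries held 1005 to 1612 barcodes and 4234786 to 10287079 UMIs. Of the barcode sequences, 28 were found in 2 libraries, and 3 stress-gated cells carried such a barcode.

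The integrated stress response (ISR) begins when a kinase phosphorylates the initiation factor eIF2alpha, which lowers general translation and favours translation of the transcription factor ATF4. ATF4 and its partner CHOP, the product of Ddit3, raise genes for amino acid import, amino acid synthesis and tRNA charging. The unfolded protein response (UPR) of the endoplasmic reticulum (ER) adds the sensors ATF6 and IRE1, which raise chaperones and the machinery that removes misfolded proteins. Trib3 encodes a pseudokinase that feeds back on ATF4, Sesn2 a stress-induced inhibitor of mTORC1 signalling, and Herpud1 an ER membrane protein that takes part in ER-associated degradation.

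The gate was set mainly by Herpud1 and Ddit3 and only in small part by Trib3, which names it in the working label. Herpud1 (chr8:94386438-94395377, GRCm38) gave 65.1% of the gate UMIs and was seen in 95.1% of the gated cells, with an exact 95% interval of 92.4 to 97.0%. Ddit3 (chr10:127290774-127296288) was seen in 65.9% of them, Sesn2 (chr4:132492032-132510501) in 26.6% and Trib3 (chr2:152337422-152344032) in 21.4%, with 96 Trib3 UMIs in all. Herpud1 alone carried 81 cells into the gate, 19 gated cells had no Herpud1 UMI, and 20 cells held all 4 genes. The median gate sum was 5 UMIs and the highest 25, and 124 cells stood at the limit of 3. These values chose the cells and are a description. Outside the gate Herpud1 was seen in 28.5% of the other MΦs, 46.9% of those with at least 2 Tnf UMIs, and 33.2% of B-gated cells. In T- and NK-gated cells of the same libraries it was seen in 7.38% of 461 cells, at a median of 2695 UMIs per cell against 5228 in the gated MΦs.

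The gated cells held many markers of large peritoneal MΦs (LPMs). Of 18 LPM markers, 13 were seen in at least 10% of the cells, among them Gata6, the transcription factor that maintains LPMs, Timd4, a receptor for phosphatidylserine, and Prg4. Of 12 general MΦ markers, 10 reached that share. Of 12 SPM markers, Retnla, Lyz1 and S100a4 did. Among the markers of 9 other classes (dendritic, B, T and NK cells, neutrophils, mast cells, eosinophils, mesothelial or stromal cells, and erythroid cells or platelets) only Blnk and Pf4 did, and all 5 eosinophil and all 8 mesothelial or stromal markers were at 0 UMIs. The rule had itself removed cells with SPM, B, T and NK cell genes, so the low counts of these classes were partly set in advance. The marker counts were made in gated cells alone, so they do not set these cells apart from the other MΦs. Gata6 was seen in 27.6% of gated cells and 23.1% of the other MΦs, and Klf2 in 10.3% and 21.2%. Among the other MΦs that met the Tnf and SPM conditions the shares were 26.7% and 24.0%.

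Proximal promoters are shown for some of the gate genes and of the genes called higher below, chosen because a searched element was found in them. The elements are known to be bound by ATF4 with CHOP, or by ATF6 with NF-Y. Every promoter shown therefore holds a match by choice, while most genes called higher held none. The windows are the 250 bases before the RefSeq start in GRCm38.p6, all of which were searched. They are printed 5′ to 3′ on the strand of the gene, with annotated exon bases left out of the print. Capitals mark the matches to 3 elements, searched on both strands: TTGCATCA, a core of the ATF4-CHOP element; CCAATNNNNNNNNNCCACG, the ER stress element (ERSE); and ATTGGNCCACG, the second form of it (ERSE-II). Herpud1 held both TTGCATCA and ERSE-II (chr8:94386179-94386428), starting 112 and 52 bases before the start of the gene. In Creld2 (chr15:88819396-88819645) and in the second match of Hsp90b1 (chr10:86705510-86705694) the ERSE lies on the other strand, so its complement is printed. The other windows are Chac1 (chr2:119350992-119351228), Atf3 (chr1:191183341-191183583) and Syvn1 (chr19:6046326-6046575). For Hspa5 (chr2:34772025-34772043) only the element itself is printed, since it lies in an annotated exon.
Herpud1: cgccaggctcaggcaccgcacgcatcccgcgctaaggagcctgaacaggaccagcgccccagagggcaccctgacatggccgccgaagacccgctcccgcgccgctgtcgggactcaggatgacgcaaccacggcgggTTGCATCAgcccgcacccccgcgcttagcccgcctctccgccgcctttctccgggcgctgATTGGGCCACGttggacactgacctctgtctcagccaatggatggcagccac
Chac1: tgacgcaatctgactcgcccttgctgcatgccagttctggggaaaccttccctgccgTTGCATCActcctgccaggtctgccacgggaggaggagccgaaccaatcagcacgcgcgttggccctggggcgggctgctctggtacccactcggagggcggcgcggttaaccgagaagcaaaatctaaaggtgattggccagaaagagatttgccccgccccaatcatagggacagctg
Atf3: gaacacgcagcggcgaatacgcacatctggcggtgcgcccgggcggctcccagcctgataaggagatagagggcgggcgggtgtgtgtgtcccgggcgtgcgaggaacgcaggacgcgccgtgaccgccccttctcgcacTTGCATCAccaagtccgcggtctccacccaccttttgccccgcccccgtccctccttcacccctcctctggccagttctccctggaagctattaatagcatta
Creld2: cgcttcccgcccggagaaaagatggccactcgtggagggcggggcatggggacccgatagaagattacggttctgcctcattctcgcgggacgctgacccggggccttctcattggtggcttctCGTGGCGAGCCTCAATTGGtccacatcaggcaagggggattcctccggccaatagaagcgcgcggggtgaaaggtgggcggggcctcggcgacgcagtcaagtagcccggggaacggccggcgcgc
Hsp90b1: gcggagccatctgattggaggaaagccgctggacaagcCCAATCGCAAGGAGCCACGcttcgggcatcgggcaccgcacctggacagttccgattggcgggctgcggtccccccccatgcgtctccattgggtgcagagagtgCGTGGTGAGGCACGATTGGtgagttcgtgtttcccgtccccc
Syvn1: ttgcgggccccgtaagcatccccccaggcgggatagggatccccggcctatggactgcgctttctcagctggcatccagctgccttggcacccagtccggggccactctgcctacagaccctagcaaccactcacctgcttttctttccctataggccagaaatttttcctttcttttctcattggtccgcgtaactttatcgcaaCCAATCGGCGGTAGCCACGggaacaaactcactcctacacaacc
Hspa5: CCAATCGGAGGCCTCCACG

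The matches fell on different genes of the pattern described below. TTGCATCA was in the window of 0.918% of the 27025 genes with a promoter sequence. Of the 6655 such genes among those compared below, 0.676% held it. It was in 5 of the 89 genes called higher in gated cells that had a window, namely Aars, Atf3, Cdc42bpa, Chac1 and Jdp2. The ERSE was in 0.130% of all windows, in 0.165% of those of the compared genes and in 5 of the same 89, namely Creld2, Dnajc3, Hsp90b1, Hspa5 and Syvn1. The matches in Aars, Cdc42bpa and Hspa5 lie in annotated exons. No gene held both of these elements among the 89. Of the 372 genes called lower with a window, 2 held TTGCATCA and none the ERSE. Of 13 ER chaperone genes with a window, 7 held the ERSE, including Calr, Canx and Pdia6, which were not called. Of 14 ISR factors and feedback genes with a window, 6 held TTGCATCA, including Nupr1, which was not called. None of the 3 elements was in the windows of Trib3, Ddit3 and Sesn2, which says only that these letters were not there.

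Stress-gated cells were found in each of the 6 libraries, at 10.5 to 18.4% of MΦs and 14.0% of the pool (12.7 to 15.3%, exact binomial, counting error only). Library 4 held 127 of them and library 3 held 39. The order of the libraries was not the same after thinning with a lower gate, and the parts of the thinning and of the gate in this were not tested apart. Gated cells had a median of 5228 UMIs and the other MΦs 4307. With every cell thinned to 1500 UMIs and a gate sum of at least 2, the share ran from 4.50% in library 1, the deepest, to 12.6% in library 6, the shallowest, and was 9.11% of the pool. Thinning left out 83 MΦs, of which 1 was gated.

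**Figure D1:**
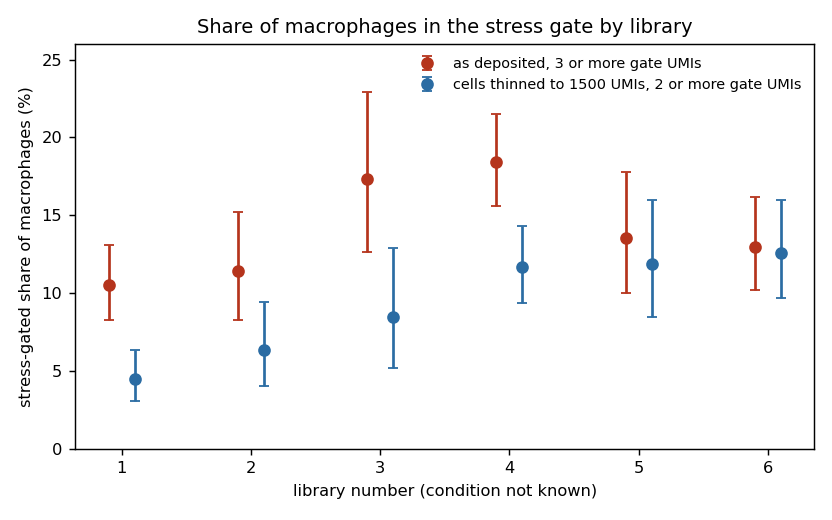
Stress-gated share of MΦs (%) by library number with exact 95% binomial intervals, from all UMIs (red) and after thinning each cell to 1500 UMIs with a gate sum of at least 2 (blue). The share from all UMIs was highest in library 4 at 18.4%, while the thinned share was lowest in library 1 at 4.50% and highest in library 6 at 12.6%.

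Levels are given as CPM, the UMIs of a gene scaled to a common total over the summed cells of a set. The ratio of gated to other MΦs is a Mantel-Haenszel ratio with the library as stratum, on the log2 scale, with a 95% interval for counting error only. A gene was called higher where the ratio was at least 1.5 and above 1 in all 6 libraries, and lower where it was at most 0.667 and below 1 in all 6. Cells are not replicates and the gate was read from the same cells, so no p-value is given. Where library ranges are said not to overlap, this is a description, since the share of all genes without overlap was not counted. Of 8698 genes with at least 5 CPM in MΦs and no part in the rule, 126 were called higher (1.45%) and 465 lower (5.35%). The median gene stood at -0.10, and ratios are to be read against it. With ratios centred on that gene the counts were 202 higher and 300 lower. With cells thinned to 1500 UMIs after gating, 102 genes were called higher and 477 lower, of which 49 and 165 were also called from all UMIs. The rule takes SPM-like and Tnf-bearing cells out of the gate but not out of the other MΦs, so each result was also set against the 1819 other MΦs that met both conditions. That comparison called 129 higher (1.48%) and 462 lower (5.31%), with 95 and 309 genes in common with the first, and its median gene stood at -0.12.

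The transcription factors and feedback genes of the ISR stood higher in gated cells, most of all Chac1. Of 12 measured genes of this list, 4 were called higher and none lower, with a median log2 ratio of 0.60 (0.68 over MΦs that met the conditions). Chac1 (chr2:119351229-119354381), which encodes an enzyme that degrades glutathione, gave between 18.7 and 52.6 CPM by library in gated cells, with a median of 39.1. In the other MΦs it gave between 3.80 and 10.2 CPM, with a median of 4.73. The libraries did not overlap, and the log2 ratio of 2.86 (2.39 to 3.34) was the largest of all genes named here apart from the gate genes. Jdp2, a partner of AP-1 and ATF factors, had a log2 ratio of 1.64 (0.95 to 2.33) from 27 UMIs. Eif4ebp1, a repressor of cap-dependent translation, had 0.76 and Atf3, a stress-induced transcription factor, 0.62. Atf4 itself, named here although the rule for named genes did not choose it, had 488 CPM against 321, a log2 ratio of 0.58 that was above 0 in 6 of 6 libraries and just under the limit for a call. Over MΦs that met the conditions Atf4 (0.72) and Ddit4 (1.10) were called higher, and Jdp2, above 0 in 5 of 6 libraries, was not. Over all other MΦs Ddit4 had 0.91, with -0.24 in library 5, and it had -0.50 with the gate raised to 5 UMIs. Gdf15, a stress-induced cytokine, varied widely, from -1.22 to 2.24 between libraries.

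**Figure D2:**
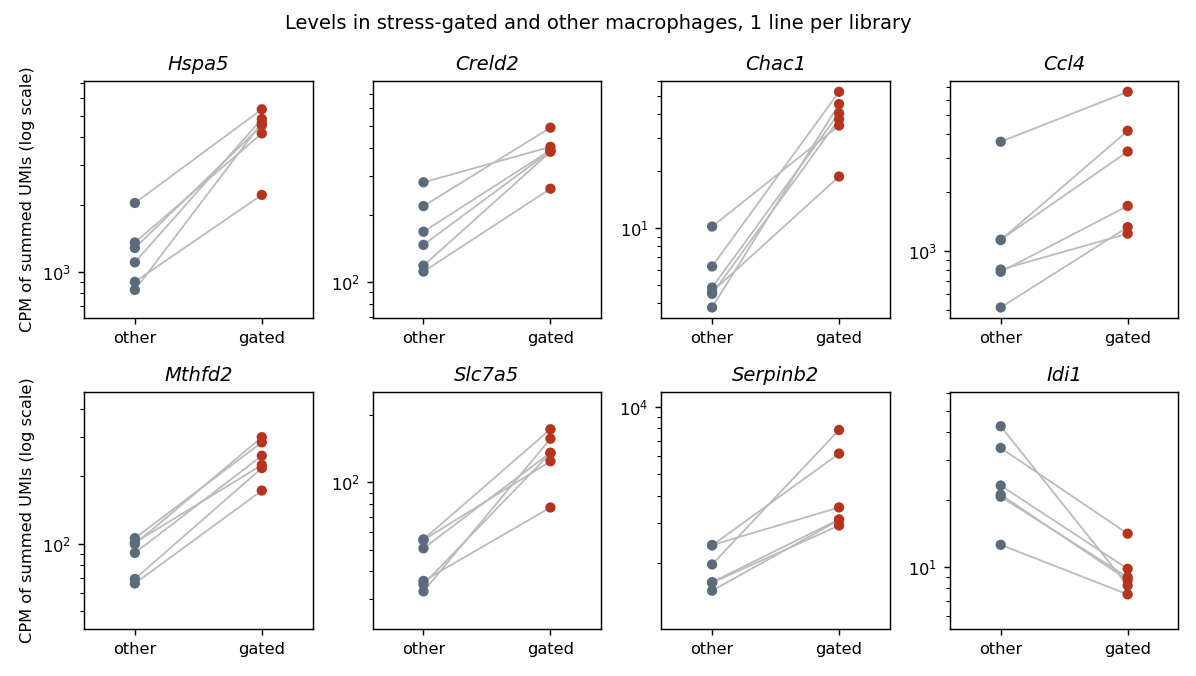
CPM (log scale) of 8 genes in the other MΦs (grey) and the stress-gated MΦs (red), with 1 line for each of the 6 libraries. Hspa5, Chac1, Mthfd2, Slc7a5 and Serpinb2 did not overlap between the sets, Ccl4 was higher in every library but ranged from 1228 to 6578 CPM in gated cells, and Idi1 was lower in every library. The share of all compared genes without overlap was not counted.

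Genes of amino acid synthesis and import were higher as well. Of 10 measured synthesis genes 5 were called higher and none lower (median 0.73, and 0.74 over MΦs that met the conditions). Mthfd2, the mitochondrial enzyme of one-carbon metabolism, gave 173 to 300.0 CPM in gated cells, median 236, and 66.3 to 106 CPM in the others, median 95.1. No library overlapped, and the log2 ratio was 1.38 (1.23 to 1.53). Asns, asparagine synthetase, had 0.76 (0.45 to 1.07), Psat1 of serine synthesis 0.71, Aldh18a1 of proline synthesis 0.93, and Pck2, the mitochondrial PEP carboxykinase, 0.82. Asns was not called over MΦs that met the conditions, where it had 0.80 and was above 0 in 5 of 6 libraries. Of 9 measured transporters 3 were called higher (median 0.42, and 0.47 over MΦs that met the conditions). Slc7a5, which imports large neutral amino acids, gave 77.2 to 173 CPM (median 136) against 32.5 to 55.5 CPM (median 43.4), a log2 ratio of 1.45 (1.24 to 1.67) with no overlap. The importer of cationic amino acids, Slc7a1, had a log2 ratio of 1.26 and the importer of small neutral ones, Slc38a2, 1.24. Slc7a11, the cystine importer, was at 1771 CPM against 1326, with a log2 ratio of 0.35 and no call, and Slc1a5 had -0.55.

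The enzymes that load tRNAs formed the next group. Of 21 genes, the cytosolic tRNA synthetases together with the tRNA exporter Xpot, 6 were called higher and 1 lower, with a median of 0.50, and of 0.49 over MΦs that met the conditions, where Cars (0.64) and Rars (0.60) were called higher as well. Yars had a log2 ratio of 0.95, Aars 0.92 (0.75 to 1.09), Sars 0.90, Xpot 0.86, Nars 0.82 and Mars 0.77. Aars gave 138 to 235 CPM by library in gated cells and 67.5 to 111 CPM in the others, with no overlap. Qars stood apart from the list, at 14.4 CPM against 23.5 and a log2 ratio of -0.71 (-1.24 to -0.18), and was below 1 in every library.

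The genes of ER folding stood higher as a list. All 18 measured chaperones and folding enzymes had a log2 ratio above 0, where the median gene stood at -0.10. Of these genes 9 were called higher and none lower (median 0.57, and 0.51 with 8 called over MΦs that met the conditions). Hspa5 (chr2:34771970-34777547), the ER chaperone BiP, gave 2212 to 5348 CPM by library in gated cells, with a median of 4597, and 829 to 2035 CPM in the others, with a median of 1191. The sets did not overlap, and the log2 ratio was 1.75 (1.71 to 1.78). Creld2, an ER protein with disulfide isomerase activity, gave 262 to 492 CPM against 111 to 280.0 CPM, so the ranges overlapped, while the ratio within a library was above 1 in all 6 and the log2 ratio was 1.17 (1.05 to 1.29). Dnajb9, a cochaperone of BiP, had 1.12. Sdf2l1 had 0.90, Manf, a secreted ER stress protein, 0.88, Pdia4 0.83, Hyou1, a nucleotide exchange factor of BiP, 0.81, Hsp90b1 (GRP94) 0.72 and Dnajc3 (P58IPK) 0.60, the last of which had 0.54 and no call over MΦs that met the conditions. Calreticulin (Calr) had 0.54 and was above 0 in every library without reaching the limit, and calnexin (Canx) 0.09.

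ER-associated degradation and the sensors moved less. Of 17 measured genes of degradation and translocation, 3 were called higher (median 0.17): the ubiquitin ligase Syvn1 with a log2 ratio of 0.98 (0.77 to 1.18), its partner Sel1l with 0.93 (0.79 to 1.08) and Selenok with 0.66. Of the 8 UPR sensors and their processing enzymes none was called (median 0.11). Xbp1, the factor spliced by IRE1, had 0.41 and Atf6 0.49, each above 0 in 6 of 6 libraries, and Ern1, which encodes IRE1, -0.13. Of 8 eIF2alpha kinases and phosphatase subunits, only Ppp1r15b, the constitutive subunit that returns eIF2alpha to its unphosphorylated form, was called, with 0.63. Eif2ak3, the gene of the ER kinase PERK, had -0.21 (-0.74 to 0.33) from 33 UMIs.

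**Figure D3:**
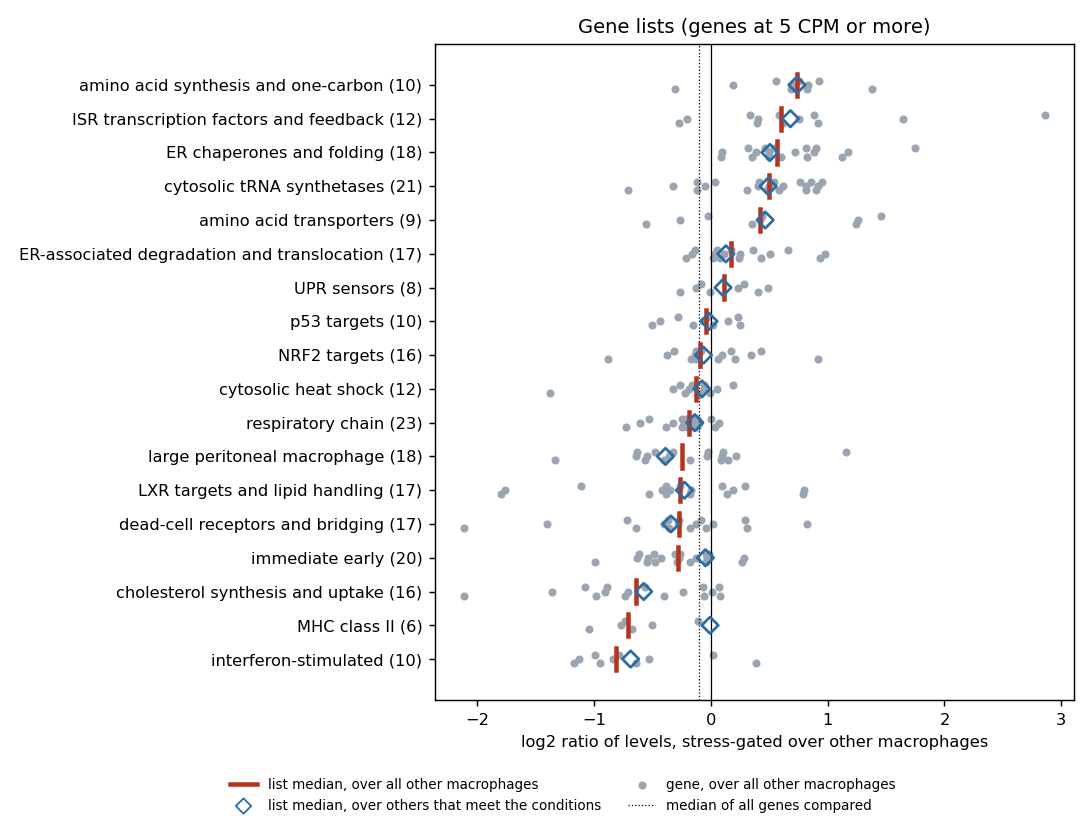
Log2 ratio of stress-gated over other MΦs for each gene with at least 5 CPM (grey points) in 18 lists, with the median of each list over all other MΦs (red bar) and over other MΦs that met the Tnf and SPM conditions (blue diamond); the number of measured genes is in parentheses and the dotted line is the median gene at -0.10. Amino acid synthesis, ISR factors, ER chaperones, tRNA synthetases and transporters had medians from 0.42 to 0.73, while MHC class II moved from -0.71 to -0.01 with the comparison group.

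Other stress programmes stood near the median gene. Of 12 measured cytosolic heat shock genes none was called in either direction (median -0.13), with Hsp90ab1 at -0.01 and Hsp90aa1 at 0.19. Of 10 measured p53 targets none was called (median -0.05), and Cdkn1a, the cell cycle inhibitor p21, had 0.25. Of 13 measured BCL2 family genes none was called (median -0.02), though Bcl2a1a was called higher over MΦs that met the conditions (0.76, against 0.17 over all others), with Bbc3 at -0.10 from 13 UMIs and Bcl2l11 (BIM) at -0.24, both known as targets of the response in dying cells. Of 16 targets of NRF2, the factor of the oxidative stress response, Sqstm1 was called higher and Nqo1 lower (median -0.09). Nqo1 had -0.88, and -0.78 with no call over MΦs that met the conditions. Sqstm1, the autophagy receptor p62, had 2589 CPM against 1290 and a log2 ratio of 0.92 (0.88 to 0.96). Hmox1 had 0.34 and Gclm 0.06. The other genes with the largest ratios came from no list. They were Soat2, an enzyme that esterifies cholesterol, with a log2 ratio of 1.62 from 36 UMIs, Nav2 with 1.57, Trim35 with 1.43 and Samd11 with 1.41.

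Cholesterol synthesis was the metabolic list that stood lower. Of 16 measured genes 5 were called lower and none higher, with a median of -0.64 (-0.58 with 4 called lower over MΦs that met the conditions). Idi1, isopentenyl diphosphate isomerase, gave 7.52 to 14.1 CPM by library in gated cells and 12.5 to 42.6 CPM in the others, a log2 ratio of -1.36 (-2.00 to -0.72). Fdft1, squalene synthase, had -1.08, Msmo1 -0.73 and Hmgcs1 -0.71. Msmo1 and Hmgcs1 were not called over MΦs that met the conditions, where Hsd17b7 (-0.99) was. Among 17 genes of lipid handling, the fatty acid binding proteins Fabp4 and Fabp5 were called higher, both with 0.79, and Lpl, lipoprotein lipase, with -1.77 (-1.88 to -1.66), and Nr1h3, which encodes LXRalpha, with -1.11, were called lower. Fabp5 was not called over MΦs that met the conditions (0.74, above 0 in 5 of 6 libraries). Of 21 measured genes of glycolysis and hypoxia the glucose transporter Slc2a1 was called higher (0.74) and Pfkp and Tpi1 lower (median -0.19), of which Pfkp, at -0.53, was not called over MΦs that met the conditions. Of 23 measured respiratory chain genes none was called (median -0.18).

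The MΦ genes of the gated cells followed a mixed course. Of 18 LPM markers Serpinb2 was called higher and Selp, Icam2 and Klf2 lower (median -0.25, and -0.39 over MΦs that met the conditions, where Alox15 was called lower too). Serpinb2, an inhibitor of plasminogen activators, gave 2937 to 7870 CPM by library in gated cells, median 3333, and 1499 to 2400 CPM in the others, median 1800. It did not overlap and had a log2 ratio of 1.16 (1.12 to 1.19). The transcription factor Klf2 gave 3.76 to 61.1 CPM against 25.1 to 138 CPM, with overlap, and had -1.33 (-1.65 to -1.01). Gata6 had a log2 ratio of -0.03 (-0.28 to 0.21), higher in 3 libraries and lower in 3. Fn1, fibronectin, had -0.32 and was lower in 6 of 6 libraries without a call. SPM markers stood lower, 5 of 10 measured being called, with a median of -1.73, but the rule itself removed cells with SPM genes, and over MΦs that met the conditions the median was -1.03 with S100a4 alone called.

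Several of the smallest ratios shrank in the same way when the comparison group met the conditions. Siglecf, a marker of eosinophils, was at 0 UMIs in gated cells and at 22.8 CPM in the other MΦs, at least 16.9-fold lower against a floor of 3 counts over the gated set (1.35 CPM), but at 2.38 CPM in the other MΦs that met the conditions. Edn1, endothelin 1, moved from a log2 ratio of -4.16 to -1.12, which was not called, from 9 gated UMIs. Car2, carbonic anhydrase 2, had 1 gated UMI, with a ratio of -5.11 (-8.00 to -2.23) that became -3.08 (-6.13 to -0.020). Ppbp also had 1, with -4.41 (-7.18 to -1.64) and then -2.20 (-5.05 to 0.66). Galnt9 and Mras had 1 gated UMI each, and Hic1 and E230016K23Rik none. Of these 8 genes, Siglecf and Car2 were still called over MΦs that met the conditions. MHC class II genes were called lower over all other MΦs, 4 of 6 measured with a median of -0.71, but not over those that met the conditions, where the median was -0.01. Cd74, the invariant chain, moved from -0.73 to -0.18 and H2-Aa from -0.68 to -0.02.

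Inflammatory genes showed no common direction. Of 25 measured genes, Ccl4 was called higher and Nfkbia lower (median 0.00, and 0.10 over MΦs that met the conditions). Ccl4, a chemokine of the C-C family, gave 1228 to 6578 CPM by library in gated cells, median 2475, and 513 to 3645 CPM in the others, median 971. The ranges overlapped, but Ccl4 was higher in 6 of 6 libraries, with a log2 ratio of 1.22 (1.18 to 1.26) that was 2.18 over MΦs that met the conditions. Its neighbour gene Ccl3 had 0.20, between -1.32 and 1.08 by library. Il1b had -0.55 and Cxcl2 0.08. Nfkbia, the inhibitor of NF-kB, had -0.77. Of 20 measured immediate early genes Egr3 and Zfp36 were called lower (median -0.28, but -0.05 with none called over MΦs that met the conditions). Of 10 measured interferon-stimulated genes 3 were called lower, among them Gbp2 with -1.17, which was not called over MΦs that met the conditions (median -0.81, and -0.69 with 1 called lower and Isg15 higher over MΦs that met the conditions).

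Gene by gene, receptors and bridging proteins for dead cells were mostly level or lower. The sum of all 21 listed genes had a median by library of 15566 CPM in gated cells and 13123 CPM in the others. The ranges of these sums overlapped, at 12430 to 19729 and 9876 to 17346 CPM. Of 17 measured genes Cd93 was called higher and Axl and Lrp1 lower (median -0.27, and -0.34 with Cd93 no longer called over MΦs that met the conditions). Cd93 gave 404 CPM against 219 and had a log2 ratio of 0.83 (0.72 to 0.94). Axl, a receptor of the same family as MerTK, had 8.09 CPM against 34.2 and -2.11 (-2.80 to -1.43), and Lrp1, a scavenger and lipoprotein receptor, -0.64. Mertk had -0.72 (-1.23 to -0.21) and was lower in 5 of 6 libraries; which of them came from MerTK -/- mice is not known.

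The levels of Hspa5 and of the summed ER chaperones rose with the gate sum on both sides of the limit. Among MΦs that met the conditions, those with a gate sum of 0 gave 954 CPM of Hspa5 (927 to 981, exact Poisson), those with 1 gave 1274 CPM and those with 2, just outside the gate, 1816 CPM. Just inside it, cells with a sum of 3 gave 2321 CPM (2210 to 2437), and cells with 10 or more gave 7043 CPM. The summed ER chaperones went from 5957 CPM at a sum of 0 to 7811 at 2, 8936 at 3 and 17211 at 10 or more. Between a sum of 2 and of 3 the Hspa5 level differed by 0.35 on the log2 scale over the pool and by 0.11 to 0.37 within the 6 libraries. Chac1 took another course. It went from 1.55 CPM at a sum of 0 to 13.0 at 2 and 35.7 at 3, and stayed at 39.2, 38.9 and 39.5 CPM in the bins of 3 to 4, 5 to 9 and 10 or more. Some genes did not rise at every step. From a sum of 1 to 2, Ccl4 went from 1018 to 695 CPM, Serpinb2 from 2210 to 1702 and Mthfd2 from 106 to 93.0. At a sum of 3 they stood at 1927, 2634 and 180 CPM. Amino acid synthesis went from 266 to 668 CPM by the bin of 5 to 9, with 696 CPM above it. Cholesterol synthesis stood at 620 CPM at a sum of 0, 525 at 2, 558 at 3 to 4 and 310.2 at 10 or more. Median depth also differed along the bins, from 3907 UMIs per cell at a sum of 0 to 6147 at 10 or more. The bins were summed over the libraries without the library as stratum, so their mix of libraries may differ. Their intervals hold counting error only.

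**Figure D4:**
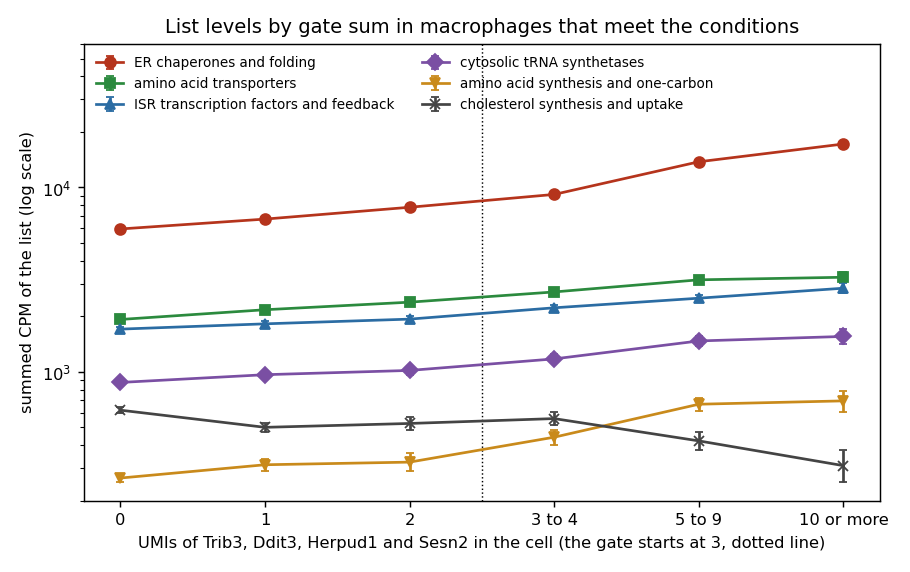
Summed CPM (log scale) of 6 gene lists in MΦs that met the Tnf and SPM conditions, by the UMIs of the gate genes in the cell, with exact 95% Poisson intervals; the dotted line is the gate. ER chaperones went from 5957 CPM at a sum of 0 to 17211 CPM at 10 or more, and cholesterol synthesis from 620 to 310.2 CPM.

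The gated cells were also split by whether Herpud1 led the gate UMIs. This split rests on few UMIs, since 124 cells had a gate sum of 3. Cells with at least as many Herpud1 UMIs as of the other gate genes together (Herpud1-led, 298 cells) were set against the remaining 89, with medians of 5176 and 5586 UMIs per cell. ER chaperones were higher in Herpud1-led cells for 17 of 18 genes, with a median log2 ratio of 0.25. Of all genes measured 4589 of 8698 were above 0, with a median of 0.03. Creld2 had 0.45 (0.19 to 0.70), Hyou1 0.47 and Hspa5 0.18 (0.11 to 0.25), each higher in 5 of 6 libraries. Pdia4 had 0.59 and Sdf2l1 0.40, but both were higher in 3 libraries and lower in 3, and Hspa13, at -0.19, was lower in 4 of 6. ISR factors and feedback genes had a median of -0.22, with 5 of 12 above 0, and went both ways. Ddit4, an mTORC1 inhibitor, had 1.64 (0.08 to 3.21, higher in 5 of 6 libraries) and Jdp2 1.13 (-0.53 to 2.79), from 4 and 3 UMIs in the smaller set. Chac1 stood at 28.4 CPM in Herpud1-led cells and 73.2 CPM in the rest, a log2 ratio of -1.30 (-1.92 to -0.68) that was below 0 in all 6 libraries, and Atf4 had -0.52 (-0.71 to -0.33). The tRNA synthetases had a median of -0.22, and Mthfd2 (-0.16) and Slc7a5 (0.08) had intervals that included 0. Cholesterol synthesis genes were higher in Herpud1-led cells for 13 of 16 genes, with a median of 0.54. Without library 4 the median of the chaperones was 0.11.

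**Figure D5:**
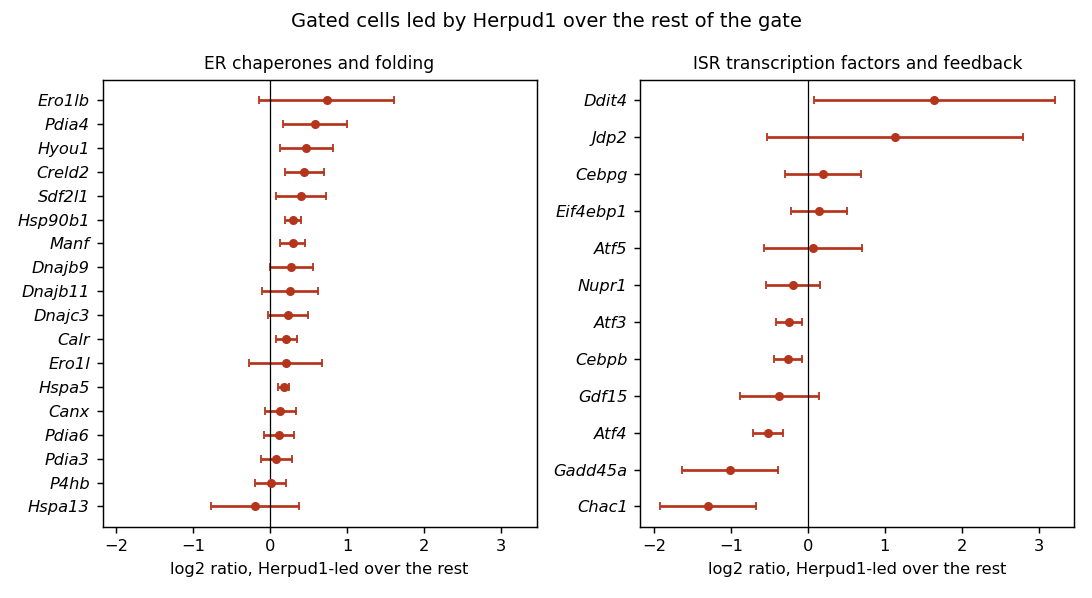
Log2 ratio of the 298 Herpud1-led over the 89 other stress-gated cells for the measured ER chaperones (left) and ISR factors (right), with 95% counting intervals. Of the chaperones 17 of 18 lie above 0 and of the ISR genes 5 of 12, from Chac1 at -1.30 to Ddit4 at 1.64. Of all genes measured 4589 of 8698 lie above 0.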

How the data were processed

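Peritoneal cells of 6 libraries had been sequenced on the 10x Genomics platform. The authors mapped reads jointly to a human and a mouse genome, kept the mouse genes and deposited raw UMI counts for 55538 features and 7760 barcodes, with no normalization. The submitters' notes name Cell Ranger 2.2 and Seurat 3.0 and the build mm10 (GRCm38), while the paper names an older Cell Ranger; the annotation is not given in the sources used here. Library numbers were not mapped to samples.

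Of the barcodes, 95 were left out by the gene and mitochondrial limits. UMIs were summed per library and cell set. Ratios, exact Poisson and binomial intervals (95%, counting error only) and thinning (seed 7) were computed in Python 3.11.15 with numpy 2.4.6 and scipy 1.17.1, and the ratios were tested on simulated data. A floor of 3 counts stood for 0 UMIs. Scrublet (scanpy 1.11.5, expected rate 0.01) called 40 barcodes doublets, of which 2 were gated cells; they were kept. Free RNA was not removed. Members, gene lists and the named-gene rule (the 12 largest and 8 smallest ratios with 1 direction in all libraries, up to 4 genes per list farthest from 1, and the 2 most abundant of a list with no call) were chosen with earlier results of these data known. Genes outside that rule in the text belong to the lists. Single values of some list genes are not reported here. Gene positions are from GENCODE vM21, promoters from RefSeq, both matched by symbol. The comparison with MΦs that met the conditions, and gates on Herpud1 alone or without Herpud1, were added after the data had been seen.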

Additional observations from a re-analysis of the deposited data

Results flagged for a closer look

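The gate genes were also seen outside the MΦs compared. Of 3116 B-gated cells (Cd79a and Cd79b together at least 3 UMIs), 373 had a gate sum of at least 3, a share of 11.97% (10.9 to 13.2%). At 1500 UMIs per cell and a gate sum of at least 2 the share was 3.95%, and 1.12% of the T- and NK-gated cells. The 9.11% of all MΦs given above is not a like measure, since those cells also had to meet the Tnf and SPM conditions. Hspa5 stood at 620 CPM and Chac1 at 13.4 CPM over all B-gated cells.

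Of the 260 MΦs with at least 2 Tnf UMIs, 21.5% (16.7 to 27.0%) had a gate sum of at least 3 and were kept out of the gate by Tnf. Their median depth was 6298 UMIs per cell, and at 1500 UMIs the share was 13.2%. They gave 145 CPM of Herpud1, 1550 CPM of Hspa5 and 15.2 CPM of Chac1. Both results were picked out because they lie in cells that the comparisons above do not describe. A part of depth in either was not tested beyond the thinned values.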

How the results depend on the processing

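No paired analysis was possible because the library numbers were not mapped to samples, so no comparison between conditions was made. Gated and other MΦs were compared within each library. The counts of called genes were 126 higher and 465 lower. Centring on the median gene gave 202 and 300. Lower calls numbered 712 with the gate at 5 UMIs, 714 with thinning before gating (where 5 libraries had 20 gated cells) and 225 with a filter of 20 CPM. Leaving out 1 library gave 151 to 171 higher and 521 to 663 lower, since 5 libraries then had to share a direction. The share in the gate was 20.9% at 2 UMIs, 7.03% at 5 UMIs, 9.11% after thinning and 12.5 to 15.0% without 1 library. Among list medians, amino acid synthesis fell to 0.45 with thinning before gating, and tRNA synthetases and ER chaperones were 0.67 and 0.75 with the gate at 5. The LPM median was -0.032 with the gate at 2, -0.035 with a filter of 20 CPM and 0.034, reversed, with thinning before gating. The lists for ISR factors, transporters and cholesterol synthesis kept their direction under all 21 alternatives. The MHC class II median did not rise above 0, but it was -0.007 over MΦs that met the conditions. There the median gene stood at -0.12, so the list was not lower in that comparison. Among named genes called over all other MΦs, Egr3 reversed over MΦs with a gate sum of 0 (0.016). H2-Eb1 reversed over MΦs that met the conditions (0.0036) and Icam2 with thinning before gating (0.063). The rest of these called genes kept their sign where a ratio could be computed. Ddit4, called only over MΦs that met the conditions, had -0.50 with the gate at 5 UMIs. The chaperone median was 0.50 for cells with Herpud1 only over cells with none. The cause of each change was not tested. The 19 gated cells without Herpud1 held 97320 UMIs, which limits that value.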

Other observations

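A smaller set of genes was called under the main settings and under all 21 alternatives, and it was picked out after its values had been seen. Of the 8698 genes compared it held 21 called higher and 14 called lower. The filter of 20 CPM over all MΦs was among the alternatives, so genes under that level could not be in it. The ER genes Creld2, Dnajb9, Hsp90b1, Hspa5, Hyou1, Manf, Pdia4, Sdf2l1 and Sel1l made up the largest group of the higher ones. The amino acid genes Mthfd2, Nars, Slc38a2 and Slc7a1 and the translation repressor Eif4ebp1 were in it, as were Ccl4, Serpinb2, Sqstm1 and Trim35. The remaining ones were Hcar2, a receptor for niacin and butyrate, with 300.4 CPM against 149 and a log2 ratio of 1.04, Lmnb1, which encodes lamin B1, with 99.8 CPM against 43.1 and 1.21, and Tcof1, a nucleolar protein of ribosomal RNA synthesis, with 96.2 CPM against 49.5 and 0.92. Chac1 and Jdp2 lay below 20 CPM over all MΦs, so they could not be in the set whatever their ratios. Slc7a5 was not in it, since it missed a call in at least 1 alternative. The 14 lower genes were 5031439G07Rik, Add3, Alkbh1, Anxa2, Gm2a, Il10ra, Kcnn4, Lpl, Myo1f, Pik3cd, Resf1, Samhd1, Sdc1 and Vdr.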
